A study of Caenorhabditis elegans with 10 samples.

Results

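The genes described here are those named nlp, for neuropeptide-like protein, with a number in Caenorhabditis elegans. They were taken by symbol from the WBcel235 annotation, the assembly also called ce11. Of all genes of that name, 6 (nlp-27 to nlp-31 and nlp-34), whose products are known as antimicrobial peptides of the epidermis, were left out. This gave 65 genes of the 46907 in the count tables. Membership went by name and used no measured value, though the family was chosen with earlier results of these data known. Whole animals of 5 strains had been sequenced as total RNA, with 2 libraries per strain and 10 in all. R9QT102I carries the changes R9Q and T102I in the motor gene unc-104, R9QG265R carries R9Q and G265R in the same gene, and R9Qunc-16 carries unc-104(R9Q) together with a mutation of unc-16 whose allele the labels do not name. R9Q carries unc-104(R9Q) alone, and WT is the wild type. All strains other than WT therefore share R9Q, none was treated, and the labels give neither age nor stage. The series was set up to compare unc-104 transcript levels in R9Q, with and without a suppressor, with those in WT.

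Neuropeptide precursors are cut, trimmed and often amidated inside dense-core vesicles, and the finished peptides act mostly on G protein-coupled receptors. The kinesin motor encoded by unc-104 moves synaptic vesicle precursors and dense-core vesicles from the neuronal cell body toward the endings of the axon. In the worm, nlp peptides are known for parts in sleep, egg laying, locomotion, defecation and sensory responses, and a few of them are made outside the nervous system. UNC-16 is a scaffold protein of the JNK pathway that binds kinesin. Transcript counts do not measure the peptide or where it is in the cell.

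Between 6239272 and 7160785 reads per library were assigned to a transcript, and values are given as CPM, counts per 1000000 assigned reads after scaling by TMM factors. Reads that fell in more than 1 transcript were not counted and made up 57.7 to 61.8% of the aligned reads, so genes with several transcripts were measured in part or not at all. A count of 0 allows up to 3 counts, or 0.386 to 0.502 CPM depending on the library, and this limit covers counting error only. The libraries of the 3 suppressed strains stood apart from each other. In R9QT102I replicate 1, R9QG265R replicate 2 and R9Qunc-16 replicate 2 the mitochondrial transcripts held 0.0238, 0.0200 and 0.0194% of the assigned counts, against 1.58 to 5.51% in the other 7 libraries. Of 51 nlp genes that passed a filter on low counts, 13 differed by more than 2-fold between the 2 R9QT102I libraries, 12 between those of R9QG265R, 29 between those of R9Qunc-16, 0 between those of R9Q and 2 between those of WT (on log2 values with 0.5 CPM added). Over all 12267 genes tested these shares were 18.8, 33.3, 35.8, 2.63 and 3.47%. The summed CPM of 10 genes known to peak towards a molt was 606 and 589 in R9QT102I, 29.6 and 595 in R9QG265R, 139.7 and 2494 in R9Qunc-16, 27.5 and 24.9 in R9Q, and 33.7 and 33.2 in WT. The label gives whole animals, and some markers of other tissues were present in every library. Intestine markers summed to 480.2 to 761 CPM, body wall muscle markers to 7158 to 12328 CPM and germline markers to 50.9 to 149.4 CPM. At 0 in each library were 1 or 2 of 7 intestine, 2 or 3 of 6 muscle and 3 of 7 germline markers. As a check of the labels, unc-104 was listed at 0 counts in every library, so the counts say nothing of its level. unc-16 had 5 and 26 counts in R9QT102I, 6 and 0 in R9QG265R, 40 and 11 in R9Qunc-16, 32 and 40 in R9Q, and 26 and 42 in WT, which does not set R9Qunc-16 apart. The labels do not say whether libraries of the same strain came from different cultures, and the p-values cover only the variation among these libraries, which may be technical.

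Of the 65 nlp genes, 51 passed the filter, 6 had some counts but fell below it, and 8 were at 0 in every library. The 8 genes at 0 were nlp-1, nlp-7, nlp-18, nlp-24, nlp-39, nlp-40, nlp-49 and nlp-80. Of these, 7 have more than 1 transcript in the table, and nlp-39 has 1. The 0 of these 7 cannot be read as silence: nlp-40, made in the intestine and needed for the defecation rhythm, and nlp-1, a peptide gene of the AWC olfactory neuron, are among them. The 6 genes below the filter were nlp-4, nlp-5, nlp-20, nlp-22, nlp-23 and nlp-81, with at most 2.004 CPM in any library. Another 6 passed the filter with a mean count under 20 (nlp-9, nlp-14, nlp-21, nlp-32, nlp-45 and nlp-69) and lay between 0 and 3.94 CPM. The remaining 45 genes are described with the value of every library. Among the genes that passed, 9 overlap a gene on the opposite strand and 3 a gene on their own strand. The strand setting of the counting is not given in the sources used here, so the values of the 9 are uncertain in that respect.

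Levels can be compared between genes only per length, which was done for the 32 genes that passed the filter, have a single transcript and share no bases with another gene. On that scale, mean CPM per kb of transcript, nlp-33 was first of the 32 in R9Q with 1047, and had 672 in R9QT102I, 786 in R9QG265R, 791 in R9Qunc-16 and 1747 in WT. In R9Q it was followed by nlp-15 with 916, nlp-3 with 719, nlp-8 with 718, nlp-13 with 673 and nlp-11 with 647 CPM per kb. The summed CPM of all 65 genes was 5107 and 3665 in R9QT102I, 3922 and 5347 in R9QG265R, 2395 and 4002 in R9Qunc-16, 6005 and 6043 in R9Q, and 4854 and 4548 in WT. Both R9Q libraries lay above the other 8 in this sum. In RNA from whole animals, fewer cells that make a transcript and less transcript per cell cannot be told apart.

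**Figure D1:**
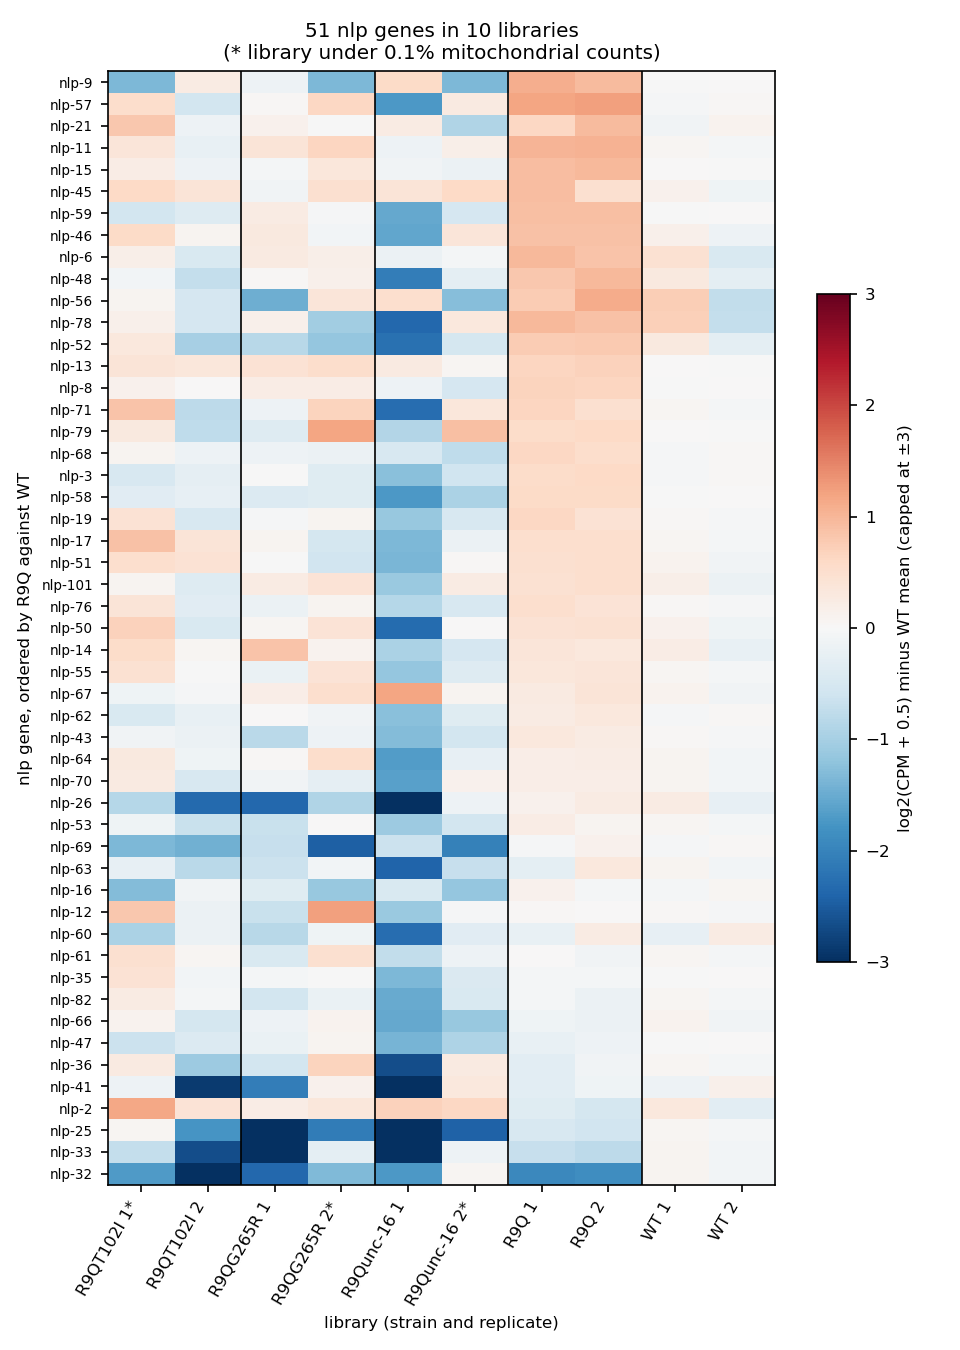
Levels of the 51 nlp genes that passed the filter in the 10 libraries, as log2(CPM + 0.5) minus the mean of the 2 WT libraries (colour, capped at ±3), with 1 row per gene ordered by the fitted R9Q against WT change. The 2 R9Q columns are alike and mostly above WT in the upper rows, while columns of 1 suppressed strain differ from each other, most of all in R9Qunc-16. Asterisks mark the 3 libraries with under 0.1% mitochondrial counts.

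R9Q was first compared with WT, the comparison that addresses the unc-104 change alone. Both R9Q libraries lay above both WT libraries in 34 of the 51 nlp genes and below both in 9, against 31.8% above and 32.6% below over all genes tested. Scaled by total counts alone, which moves the median of all genes by 0.10 on the log2 scale, they were 37 above and 4 below, against 40.6% above and 26% below over all genes. In the fit of all 10 libraries 0 nlp genes passed the test (edgeR quasi-likelihood, adjusted p under 0.05), with 0.31% of all genes called. At an unadjusted p under 0.05 there were 6 (nlp-8, nlp-11, nlp-13, nlp-15, nlp-59 and nlp-68), all higher in R9Q. The share of all genes at that p was not taken here or in later comparisons. Such counts are therefore not read as results about the nlp genes. DESeq2 called 4 of 49 nlp genes and 2.25% of all genes. The median log2 fold change of the 51 genes was 0.44, with 40 above 0. Over all genes the median was 0.001, with 50.1% above 0. This fit takes its spread also from the suppressed strains, whose libraries differed more. Fitted on the 4 R9Q and WT libraries alone, 27 of 50 nlp genes passed as higher in R9Q and 6 as lower, against 17.7% and 20% of all genes, so the count of calls depends on which libraries set the spread. The 6 lower ones were nlp-2, nlp-25, nlp-32, nlp-33, nlp-36 and nlp-47.

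**Figure D2:**
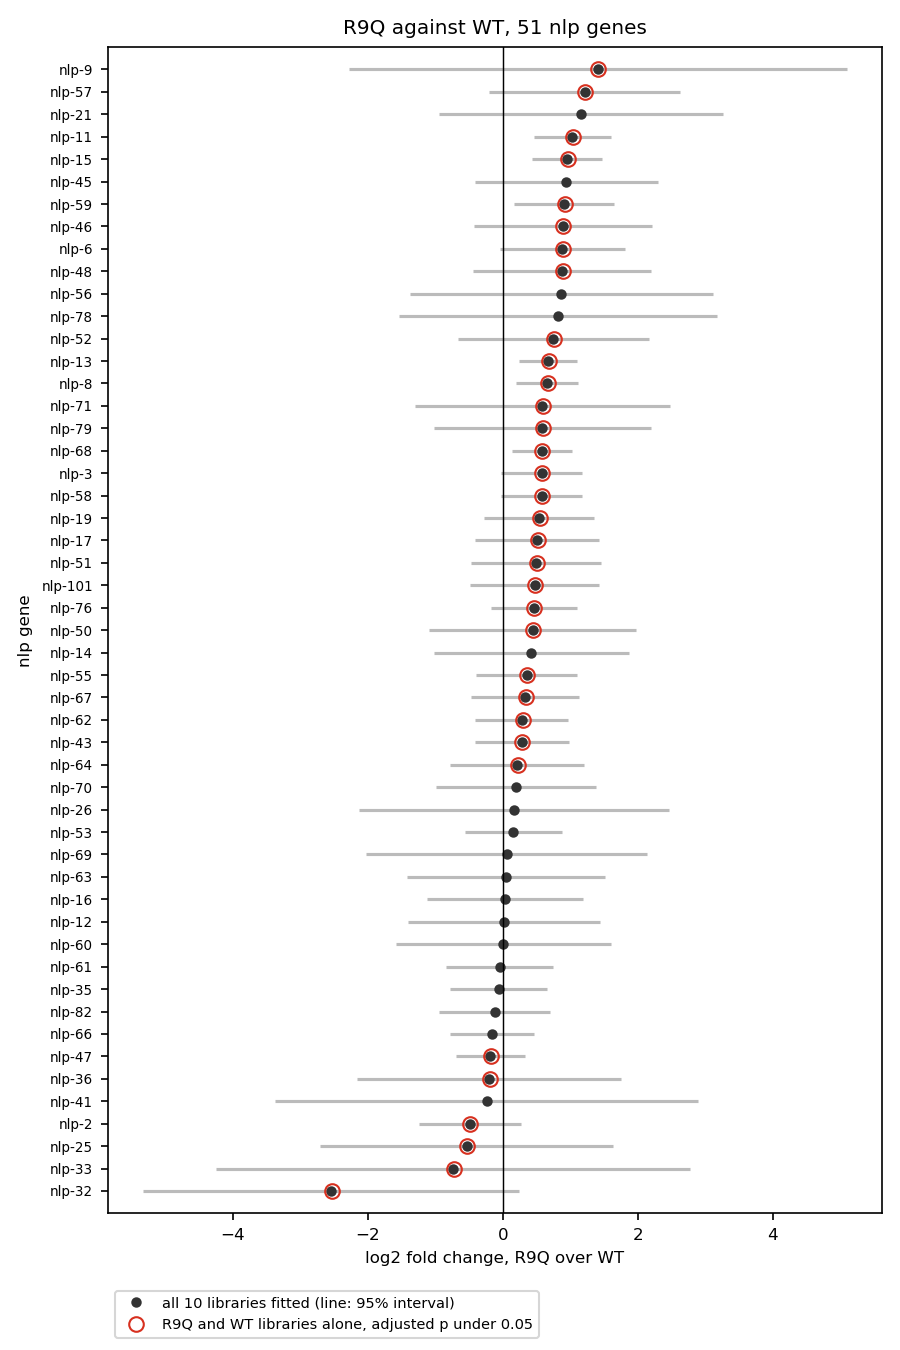
Log2 fold change of R9Q over WT for the 51 nlp genes (horizontal axis), with points and 95% intervals from the fit of all 10 libraries. Red rings mark the 33 genes with adjusted p under 0.05 in the fit of the R9Q and WT libraries alone. Of the points, 40 lie above 0, beside 50.1% of all genes, and nlp-33 has one of the widest intervals.

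Among the genes with known parts in sleep or arousal, 3 of the most counted had their highest values in R9Q. nlp-15 (chromosome I) encodes orcokinin-type peptides, a family with a part in worm sleep. It had 409.9 and 318 CPM in R9QT102I, 339 and 446 CPM in R9QG265R, 327 and 308 CPM in R9Qunc-16, 671 and 690.0 CPM in R9Q, and 353 and 349 CPM in WT. The R9Q libraries lay above all others, and those of the suppressed strains ran from 308 to 446 CPM, around the WT values. In R9Q against WT, the fitted log2 fold change of nlp-15 was 0.95 (SE 0.23, adjusted p = 0.222), and against R9Q the change was -0.90 (SE 0.23, adjusted p = 0.166) in R9QT102I, -0.79 (SE 0.22, adjusted p = 0.369) in R9QG265R and -1.10 (SE 0.23, adjusted p = 0.0746) in R9Qunc-16, none of which passed the test.

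nlp-8 (chromosome I), whose peptides act in the sleep that follows cellular stress, had 418 and 383 CPM in R9QT102I, 446 and 448 CPM in R9QG265R, 343 and 269 CPM in R9Qunc-16, 610.2 and 599 CPM in R9Q, and 382 and 384 CPM in WT. R9Q was again above all other libraries, R9QG265R lay just above WT without overlap, and R9Qunc-16 lay below WT. Set against WT, R9Q had a fitted log2 fold change in nlp-8 of 0.66 (SE 0.20, adjusted p = 0.371). The change against R9Q was -0.59 (SE 0.20, adjusted p = 0.314) in R9QT102I, -0.44 (SE 0.20, adjusted p = 0.594) in R9QG265R and -0.98 (SE 0.20, adjusted p = 0.0746) in R9Qunc-16, and none passed.

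nlp-11 (chromosome II, 9689664 to 9691939), which is expressed in the sleep-active neuron RIS, had 260.2 and 175 CPM in R9QT102I, 267 and 315 CPM in R9QG265R, 183 and 228 CPM in R9Qunc-16, 412 and 416 CPM in R9Q, and 212 and 194 CPM in WT. R9Q lay above all other libraries, and R9QG265R lay between R9Q and WT without overlap with either. The fitted log2 fold change of nlp-11 in R9Q against WT was 1.03 (SE 0.25, adjusted p = 0.222). The change against R9Q was -0.93 (SE 0.25, adjusted p = 0.198) in R9QT102I, -0.51 (SE 0.25, adjusted p = 0.618) in R9QG265R and -1.01 (SE 0.25, adjusted p = 0.101) in R9Qunc-16, with none past the threshold.

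nlp-2 (chromosome X, 2343947 to 2344766) encodes RPamide peptides that promote wakefulness, and it ran the other way. It had 59.99 and 35.3 CPM in R9QT102I, 31.3 and 33.8 CPM in R9QG265R, 43.05 and 41.01 CPM in R9Qunc-16, 20.6 and 18.3 CPM in R9Q, and 33.2 and 21.2 CPM in WT. It was the only nlp gene of the 51 whose R9Q libraries lay below all other 8, beside 4.26% of all genes tested. Scaled by total counts or without mitochondrial genes, 0 nlp genes met this, beside 2.47% and 2.42% of all genes. With 21.2 CPM in 1 WT library, the gap of nlp-2 to WT was small. Its relative nlp-22, which encodes a sleep-promoting RPamide peptide of lethargus, was at 0 in 7 of the libraries and at most at 0.310 CPM. nlp-14, the other orcokinin gene, is measured in part and lay between 0.460 and 2.88 CPM. Of the 7 listed genes with parts in sleep or arousal 5 were tested, 4 of them with a change above 0 in R9Q against WT and 0 called. Their summed CPM was 1150 and 912 in R9QT102I, 1086 and 1244 in R9QG265R, 897 and 847 in R9Qunc-16, 1715 and 1725 in R9Q, and 982 and 949 in WT.

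**Figure D3:**
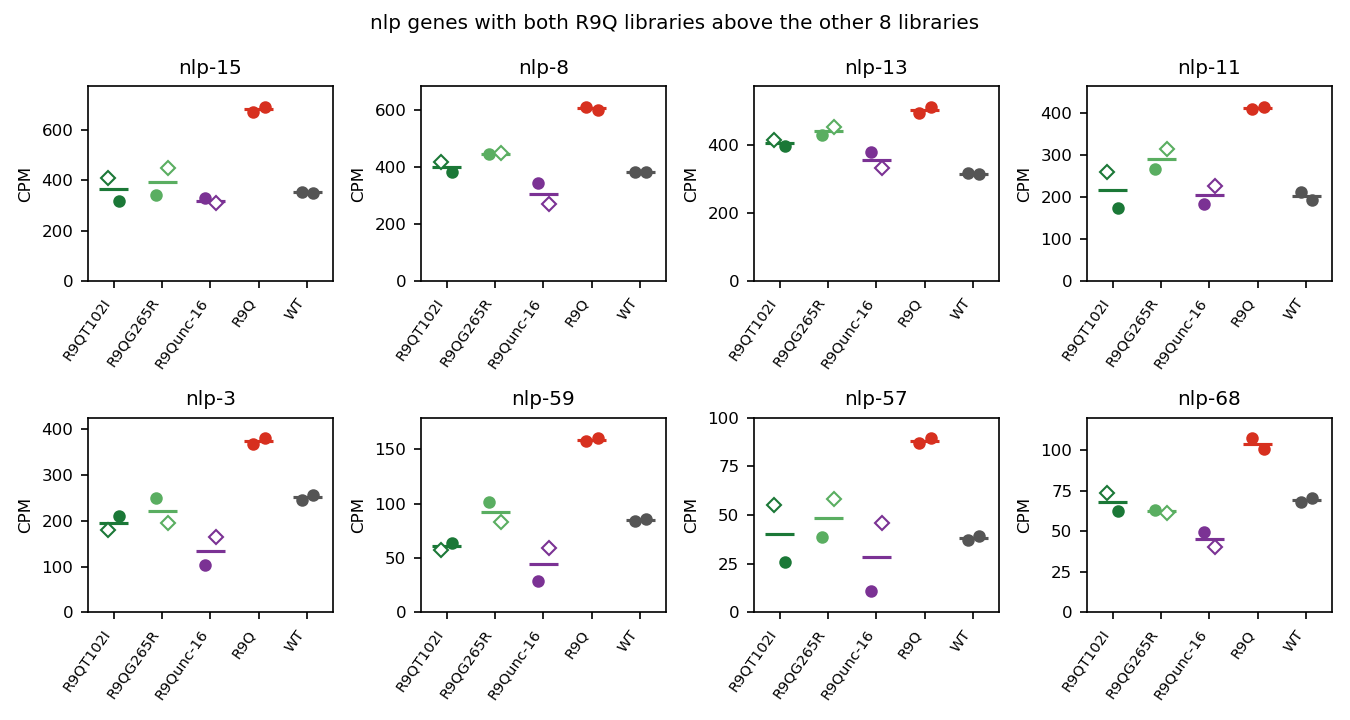
CPM of 8 nlp genes in each library, by strain, with a bar at the mean of the 2 libraries. Filled circles are libraries with mitochondrial counts of 1.58% or more, and hollow diamonds the 3 libraries under 0.1%. In each panel both R9Q points lie above the other 8; the panels were chosen for this after the values were seen.

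Of the genes with parts in motor programmes, 2 of 5 could be tested. nlp-3 (chromosome X, 13177856 to 13178447) encodes peptides of the HSN neurons that act with serotonin in egg laying. It had 179.8 and 209 CPM in R9QT102I, 249 and 194 CPM in R9QG265R, 104.2 and 164 CPM in R9Qunc-16, 368 and 379 CPM in R9Q, and 246 and 255 CPM in WT. R9Q lay above every other library, and R9QT102I and R9Qunc-16 lay below WT. In R9Q against WT, the fitted log2 fold change of nlp-3 was 0.57 (SE 0.26, adjusted p = 0.684). The change against R9Q was -0.94 (SE 0.26, adjusted p = 0.214) in R9QT102I, -0.75 (SE 0.26, adjusted p = 0.471) in R9QG265R and -1.48 (SE 0.26, adjusted p = 0.0575) in R9Qunc-16, and none passed.

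nlp-12 (chromosome I), the cholecystokinin-like gene of the stretch-sensing neuron DVA that adjusts body bends, had 234 and 118 CPM in R9QT102I, 83.4 and 310.1 CPM in R9QG265R, 60.97 and 129 CPM in R9Qunc-16, 137 and 133 CPM in R9Q, and 137 and 129 CPM in WT. R9Q and WT overlapped, whereas the R9QG265R libraries differed by 3.72-fold and those of R9Qunc-16 by 2.12-fold. The highest values were those of R9QT102I replicate 1 and R9QG265R replicate 2, both of them libraries low in mitochondrial counts. The part of that difference in the result was not tested.

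Peptides related to those of vertebrates come also from nlp-58 and nlp-47. Both passed a test in R9Qunc-16, whereas the cholecystokinin-like nlp-12 passed none. nlp-58 (chromosome V, 9946321 to 9948940), the tachykinin-like gene whose receptor is TKR-1 and which was counted on 1 of its 2 annotated transcripts, had 64.7 and 69.1 CPM in R9QT102I, 62.3 and 63.8 CPM in R9QG265R, 24.5 and 42.7 CPM in R9Qunc-16, 123 and 123 CPM in R9Q, and 82.4 and 82.8 CPM in WT. It was highest in R9Q and lowest in R9Qunc-16, and all libraries of the suppressed strains lay below WT. It fell in R9Qunc-16 against R9Q (log2 fold change -1.87, SE 0.27, adjusted p = 0.0379) and against WT (log2 fold change -1.29, SE 0.26, adjusted p = 0.0401). The change against R9Q was -0.88 (SE 0.26, adjusted p = 0.258) in R9QT102I and -0.96 (SE 0.26, adjusted p = 0.366) in R9QG265R, neither past the threshold. Set against WT, R9Q had a fitted log2 fold change in nlp-58 of 0.57 (SE 0.26, adjusted p = 0.688).

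nlp-47 (chromosome IV, 5290847 to 5293654), related to gonadotropin-releasing and adipokinetic hormones and a ligand of GNRR-1, had 140.1 and 165 CPM in R9QT102I, 192 and 233 CPM in R9QG265R, 83.2 and 115 CPM in R9Qunc-16, 188 and 199 CPM in R9Q, and 219.9 and 221 CPM in WT. R9Qunc-16 was lowest, and R9Q lay a little below WT. It fell in R9Qunc-16 against WT (log2 fold change -1.15, SE 0.23, adjusted p = 0.0364).

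The other 2 genes that passed a test have no role given here. nlp-68 (chromosome III, 10538081 to 10539163) had 73.7 and 62.3 CPM in R9QT102I, 62.9 and 61.4 CPM in R9QG265R, 49.5 and 40.5 CPM in R9Qunc-16, 107 and 100.4 CPM in R9Q, and 68.3 and 70.7 CPM in WT. R9Q was above all other libraries and R9Qunc-16 below all others. nlp-68 fell in R9Qunc-16 against R9Q (log2 fold change -1.21, SE 0.19, adjusted p = 0.0461), while its changes against R9Q of -0.61 (SE 0.19, adjusted p = 0.287) in R9QT102I and -0.74 (SE 0.19, adjusted p = 0.366) in R9QG265R did not pass. The fitted log2 fold change of nlp-68 in R9Q against WT was 0.58 (SE 0.19, adjusted p = 0.441).

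nlp-66 (chromosome X, 11116107 to 11116823) had 67.2 and 42.8 CPM in R9QT102I, 56.4 and 67.0 CPM in R9QG265R, 21.1 and 28.3 CPM in R9Qunc-16, 56.7 and 55.4 CPM in R9Q, and 66.9 and 58.3 CPM in WT. R9Qunc-16 was below all other libraries, and R9Q did not stand above WT. nlp-66 fell in R9Qunc-16 against WT (log2 fold change -1.34, SE 0.28, adjusted p = 0.0407). In all, 2 of 51 nlp genes were called in R9Qunc-16 against R9Q, where 0.668% of all genes were called, and 3 in R9Qunc-16 against WT, where 4.46% were. These calls lean on the spread of the other strains: all were lost when either library of R9QT102I, R9Q or WT was left out, or when only the 4 libraries of the 2 strains were fitted. Against WT, nlp-47 and nlp-66 were also lost without R9Qunc-16 replicate 1, and nlp-58 and nlp-66 without R9QG265R replicate 1. Among these and the other alternatives their highest adjusted p was 0.430 for nlp-58 and 0.515 for nlp-68 against R9Q, and 0.276 for nlp-58, 0.271 for nlp-47 and 0.305 for nlp-66 against WT. Without R9Qunc-16 replicate 1 there were 5 calls among 53 nlp genes against R9Q (3.6% of all genes) and 1 against WT (6.48% of all genes). Without its replicate 2 there were 23 among 52 against R9Q (5.19% of all genes) and 20 against WT (11% of all genes). Leaving out R9QG265R replicate 1 gave 2 of 53 against R9Q (1.94%) and 1 against WT (7%), and leaving out its replicate 2 gave 5 against R9Q (2.02%) and 3 against WT (6.67%), so that the counts against WT were at or below the share of all genes in 3 of these 4 cases.

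The YGGYG-type genes nlp-24, nlp-25, nlp-26, nlp-32 and nlp-33 encode glycine and tyrosine rich peptides like those of the epidermal antimicrobial genes left out here. nlp-33 (chromosome V, 11147346 to 11147737) had 368 and 94.9 CPM in R9QT102I, 49.4 and 492 CPM in R9QG265R, 8.89 and 536 CPM in R9Qunc-16, 374 and 346 CPM in R9Q, and 636 and 566 CPM in WT. The R9Qunc-16 libraries differed by 60.3-fold, those of R9QG265R by 9.96-fold and those of R9QT102I by 3.88-fold, with the library low in mitochondrial counts higher each time. R9Q lay below WT without overlap. In R9Q against WT, the fitted log2 fold change of nlp-33 was -0.74 (SE 1.52, adjusted p = 1), the SE being set by the spread in the suppressed strains. Against R9Q the change was -0.64 (SE 1.52, adjusted p = 0.944) in R9QT102I, -0.41 (SE 1.51, adjusted p = 0.967) in R9QG265R and -0.40 (SE 1.51, adjusted p = 0.921) in R9Qunc-16, and each turned positive without the lower library of that strain.

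nlp-25 had 55.3 and 15.3 CPM in R9QT102I, 4.63 and 12.1 CPM in R9QG265R, 0.766 and 9.48 CPM in R9Qunc-16, 38.2 and 35.2 CPM in R9Q, and 55.5 and 50.8 CPM in WT. The same library was the higher one in each suppressed strain, and R9Q lay below WT (log2 fold change -0.53, SE 0.94, adjusted p = 1). nlp-26, which overlaps Y43F8C.3 on the opposite strand, had 38.3 and 13.5 CPM in R9QT102I, 13.3 and 36.8 CPM in R9QG265R, 4.75 and 62.6 CPM in R9Qunc-16, 75.9 and 82.7 CPM in R9Q, and 83.3 and 58.1 CPM in WT. Its R9Q and WT libraries overlapped, and the suppressed libraries spread from 4.75 CPM up to the WT range. nlp-32, with 0 to 3.94 CPM, had 0.586 and 0.643 CPM in R9Q and 3.94 and 3.41 CPM in WT, which are few counts. The summed CPM of the 5 genes was 462 and 124 in R9QT102I, 67.6 and 542 in R9QG265R, 15.2 and 612 in R9Qunc-16, 489 and 465 in R9Q, and 779 and 678 in WT. The 17 listed epidermal antimicrobial genes, none of them counted among the 65, summed to 647 and 225 CPM in R9QT102I, 169.8 and 805 in R9QG265R, 81.2 and 888 in R9Qunc-16, 1204 and 1239 in R9Q, and 961 and 836 in WT. Within each suppressed strain this sum was higher in the same library as the YGGYG sum, and in R9Q it lay above WT where the YGGYG sum lay below. Epidermal markers (6 listed, 2 or 3 of them at 0 in each library) summed to 1881 and 1725 CPM in R9QT102I, 1197 and 2134 in R9QG265R, 1366 and 2139 in R9Qunc-16, 399 and 379 in R9Q, and 1111 and 1094 in WT. The median CPM of the 5 with a count was instead higher in R9Q, at 1.76 and 1.29, than in WT, at 0.152 and 0.155. These medians rest on few counts. Of the 3 epidermal markers tested, 2 had a fitted change above 0 in R9Q against WT, so the markers did not move together. The part of these differences in the nlp values was not tested.

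**Figure D4:**
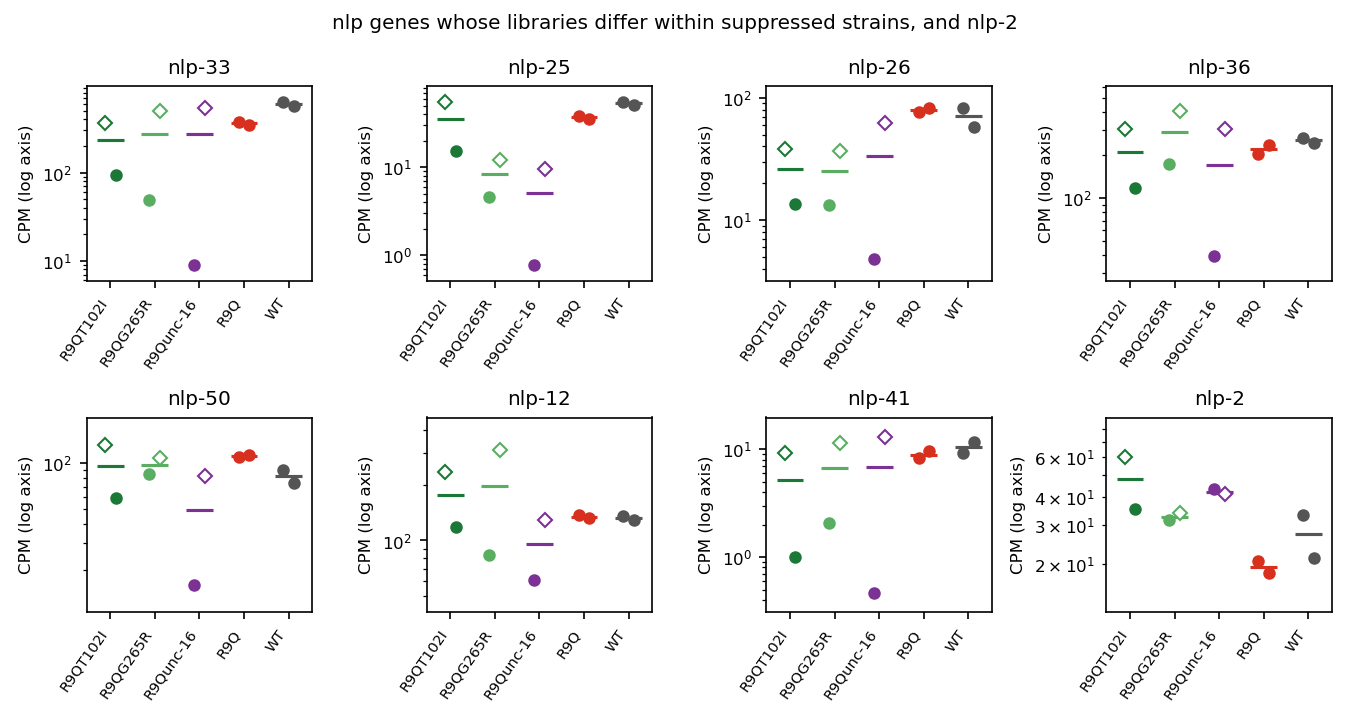
CPM on a log axis of 8 nlp genes in each library, by strain, with a bar at the mean of the 2 libraries. Hollow diamonds are the 3 libraries with under 0.1% mitochondrial counts. In the first 7 panels they lie above the filled circle of the same strain, and these genes were chosen for differing within the suppressed strains. Not all nlp genes go this way, as nlp-16 was lower in these 3 libraries than in the other library of the same strain. In the nlp-2 panel both R9Q points lie below the other 8.

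The most counted of the nlp genes with no role given here was nlp-13 (chromosome V, 4236418 to 4238056), with 415 and 398 CPM in R9QT102I, 429.8 and 452 CPM in R9QG265R, 379 and 331 CPM in R9Qunc-16, 493 and 512 CPM in R9Q, and 317 and 315 CPM in WT. R9Q was highest, and each suppressed strain lay between R9Q and WT without overlap with either. Set against WT, R9Q had a fitted log2 fold change in nlp-13 of 0.67 (SE 0.18, adjusted p = 0.304). The change against R9Q was -0.31 (SE 0.18, adjusted p = 0.635) in R9QT102I, -0.19 (SE 0.18, adjusted p = 0.844) in R9QG265R and -0.50 (SE 0.18, adjusted p = 0.196) in R9Qunc-16, none past the threshold.

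nlp-59 (chromosome V, 14971436 to 14972419) had 57.6 and 64.3 CPM in R9QT102I, 101 and 82.9 CPM in R9QG265R, 28.8 and 59.4 CPM in R9Qunc-16, 158 and 160.0 CPM in R9Q, and 83.7 and 85.7 CPM in WT. R9Q stood above all other libraries, while R9QT102I and R9Qunc-16 lay below WT. The fitted log2 fold change of nlp-59 in R9Q against WT was 0.91 (SE 0.32, adjusted p = 0.487). The change against R9Q was -1.38 (SE 0.32, adjusted p = 0.142) in R9QT102I, -0.79 (SE 0.32, adjusted p = 0.536) in R9QG265R and -1.85 (SE 0.33, adjusted p = 0.0565) in R9Qunc-16, and none passed.

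nlp-57 (chromosome X, 11317050 to 11318055) had the largest fitted change in R9Q against WT among the described genes. It had 55.1 and 25.8 CPM in R9QT102I, 38.8 and 58.4 CPM in R9QG265R, 11.2 and 45.7 CPM in R9Qunc-16, 87.1 and 89.4 CPM in R9Q, and 37.2 and 39.1 CPM in WT. R9Q lay above all other libraries, and in each suppressed strain the library low in mitochondrial counts was the higher one. In R9Q against WT, the fitted log2 fold change of nlp-57 was 1.21 (SE 0.61, adjusted p = 0.751).

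Less counted genes with R9Q above all other libraries, none with a role given here, were nlp-46, nlp-48, nlp-52 and nlp-6. nlp-46, with T28H10.1 on the opposite strand, had 23.9 and 16.7 CPM in R9QT102I, 19.5 and 14.7 CPM in R9QG265R, 5.06 and 20.4 CPM in R9Qunc-16, 29.4 and 29.3 CPM in R9Q, and 17.6 and 14.1 CPM in WT. For nlp-48 the values were 13.7 and 8.65 CPM in R9QT102I, 14.9 and 16.1 CPM in R9QG265R, 3.06 and 11.6 CPM in R9Qunc-16, 25.5 and 28.7 CPM in R9Q, and 17.9 and 11.6 CPM in WT. R9Qunc-16 replicate 1 was the lowest library in both. nlp-52 had 37.5 and 14.6 CPM in R9QT102I, 16.6 and 13.1 CPM in R9QG265R, 5.97 and 20.7 CPM in R9Qunc-16, 50.7 and 52.0 CPM in R9Q, and 36.9 and 24.2 CPM in WT. For nlp-6, which has 3 transcripts in the table and is measured in part, they were 10.8 and 6.81 CPM in R9QT102I, 11.7 and 10.9 CPM in R9QG265R, 8.43 and 9.08 CPM in R9Qunc-16, 19.2 and 17.7 CPM in R9Q, and 13.2 and 6.82 CPM in WT. The 2 WT libraries of nlp-52 and nlp-6 differed more than those of R9Q. Against WT the fitted change in R9Q was 0.89 (SE 0.57, adjusted p = 0.89) for nlp-46, 0.87 (SE 0.57, adjusted p = 0.898) for nlp-48, 0.75 (SE 0.61, adjusted p = 0.964) for nlp-52 and 0.88 (SE 0.40, adjusted p = 0.693) for nlp-6. None passed.

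The same order, with smaller differences, was seen in nlp-43, nlp-53, nlp-62, nlp-76, nlp-101 and nlp-19. nlp-43 had 87.9 and 84.0 CPM in R9QT102I, 54.2 and 85.4 CPM in R9QG265R, 38.5 and 64.9 CPM in R9Qunc-16, 118 and 113 CPM in R9Q, and 97.4 and 92.8 CPM in WT. In nlp-53 there were 92.5 and 63.8 CPM in R9QT102I, 63.3 and 103 CPM in R9QG265R, 47.5 and 69.3 CPM in R9Qunc-16, 118.8 and 107 CPM in R9Q, and 106 and 97.2 CPM in WT. The gap of nlp-53 between R9Q replicate 2 and WT replicate 1 was 107 against 106 CPM. nlp-62 (chromosome I) had 34.7 and 41.3 CPM in R9QT102I, 48.2 and 44.7 CPM in R9QG265R, 19.9 and 37.4 CPM in R9Qunc-16, 56.96 and 59.7 CPM in R9Q, and 46.4 and 49.4 CPM in WT. nlp-76, which overlaps nhr-17 on its own strand, had 80.1 and 48.5 CPM in R9QT102I, 53.99 and 65.0 CPM in R9QG265R, 33.4 and 43.7 CPM in R9Qunc-16, 86.1 and 81.4 CPM in R9Q, and 62.3 and 59.8 CPM in WT. Here R9Q replicate 2, at 81.4 CPM, was close to R9QT102I replicate 1 at 80.1 CPM. nlp-101 had 47.6 and 34.2 CPM in R9QT102I, 53.0 and 59.3 CPM in R9QG265R, 20.5 and 53.2 CPM in R9Qunc-16, 61.1 and 64.05 CPM in R9Q, and 50.5 and 39.5 CPM in WT. In nlp-19 there were 41.6 and 21.8 CPM in R9QT102I, 29.9 and 32.6 CPM in R9QG265R, 13.6 and 21.8 CPM in R9Qunc-16, 47.3 and 41.9 CPM in R9Q, and 31.2 and 30.2 CPM in WT. R9Q replicate 2 was there at 41.9 CPM, close to 41.6 CPM in R9QT102I replicate 1. nlp-19 changed by 0.54 (SE 0.35, adjusted p = 0.904) in R9Q against WT, which did not pass.

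Of the described genes with the fewest counts, 2 more followed this order. nlp-78, which overlaps C16D2.4 on its own strand, had 4.08 and 2.41 CPM in R9QT102I, 4.15 and 1.51 CPM in R9QG265R, 0.306 and 4.67 CPM in R9Qunc-16, 7.61 and 7.20 CPM in R9Q, and 6.37 and 2.01 CPM in WT. nlp-56, measured in part and with another gene on the opposite strand, had 2.83 and 1.70 CPM in R9QT102I, 0.639 and 3.52 CPM in R9QG265R, 3.98 and 0.801 CPM in R9Qunc-16, 4.83 and 6.30 CPM in R9Q, and 4.70 and 1.39 CPM in WT. Their WT libraries differed by 3.16-fold and 3.37-fold, so the difference from R9Q was not larger than the spread between WT libraries. The fitted change in R9Q against WT was 0.82 (SE 1.02, adjusted p = 1) for nlp-78 and 0.86 (SE 0.97, adjusted p = 1) for nlp-56. With nlp-9, which had 2.20 and 1.93 CPM in R9Q and 0 to 1.38 CPM elsewhere, this made 22 nlp genes, or 43.1% of the 51, with both R9Q libraries above all other 8. Over all genes tested the share was 4.7%. The pattern was chosen after its values were seen and carries no test. Of the 22 genes 7 lie on chromosome X, where 14 of the 51 lie, and 19 have 1 transcript, as do 42 of the 51. Under other scalings of the libraries there were 22 to 27 such genes, with 4.58 to 9.3% of all genes.

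A further 9 described genes had both R9Q libraries above both WT libraries without exceeding all others. nlp-55 had 320.4 and 230.1 CPM in R9QT102I, 203 and 311 CPM in R9QG265R, 103.7 and 177 CPM in R9Qunc-16, 296 and 298 CPM in R9Q, and 244 and 222 CPM in WT. nlp-17, which overlaps seld-1 on the opposite strand, had 202 and 145 CPM in R9QT102I, 118 and 76.0 CPM in R9QG265R, 42.7 and 98.3 CPM in R9Qunc-16, 156 and 157 CPM in R9Q, and 115 and 106 CPM in WT. nlp-51 had 124 and 118 CPM in R9QT102I, 86.4 and 58.3 CPM in R9QG265R, 33.4 and 90.2 CPM in R9Qunc-16, 123 and 124 CPM in R9Q, and 93.7 and 81.8 CPM in WT. In all 3, R9QT102I replicate 1 was above R9Q or level with it, and R9Qunc-16 replicate 1 was lowest. nlp-17 changed by 0.51 (SE 0.39, adjusted p = 0.943) in R9Q against WT, and against R9Q by 0.15 (SE 0.39, adjusted p = 0.952) in R9QT102I, -0.69 (SE 0.40, adjusted p = 0.689) in R9QG265R and -1.15 (SE 0.40, adjusted p = 0.181) in R9Qunc-16. None of these passed.

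nlp-64 had 107 and 79.1 CPM in R9QT102I, 89.3 and 126 CPM in R9QG265R, 26.8 and 73.5 CPM in R9Qunc-16, 101 and 102.1 CPM in R9Q, and 92.8 and 82.0 CPM in WT. nlp-50 had 132 and 59.1 CPM in R9QT102I, 85.1 and 107.99 CPM in R9QG265R, 15.9 and 82.7 CPM in R9Qunc-16, 110.0 and 112 CPM in R9Q, and 89.3 and 74.2 CPM in WT. nlp-70 had 64.1 and 37.9 CPM in R9QT102I, 49.04 and 43.9 CPM in R9QG265R, 16.7 and 58.1 CPM in R9Qunc-16, 60.8 and 60.6 CPM in R9Q, and 55.8 and 50.4 CPM in WT. R9Qunc-16 replicate 1 was again the lowest library of all 3, 5.19-fold below replicate 2 in nlp-50. nlp-67 had 36.6 and 38.6 CPM in R9QT102I, 45.8 and 57.1 CPM in R9QG265R, 90.8 and 42.1 CPM in R9Qunc-16, 48.3 and 52.0 CPM in R9Q, and 43.1 and 36.9 CPM in WT. It was the one gene of the 45 whose highest value was that of R9Qunc-16 replicate 1. nlp-71, which is measured in part and overlaps the small RNA gene 21ur-15244, had 48.7 and 15.2 CPM in R9QT102I, 23.96 and 42.5 CPM in R9QG265R, 5.06 and 33.9 CPM in R9Qunc-16, 42.0 and 37.4 CPM in R9Q, and 27.6 and 25.4 CPM in WT. nlp-79, which overlaps crld-1 on the opposite strand, had 20.9 and 9.93 CPM in R9QT102I, 12.9 and 39.2 CPM in R9QG265R, 9.04 and 32.3 CPM in R9Qunc-16, 25.2 and 25.98 CPM in R9Q, and 17.1 and 17.05 CPM in WT. In these last 2 genes the libraries of each suppressed strain differed, the one low in mitochondrial counts being higher, and the change in R9Q against WT was 0.58 (SE 0.82, adjusted p = 1) for nlp-71 and 0.58 (SE 0.69, adjusted p = 1) for nlp-79. Neither passed.

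In the other 8 described genes R9Q was not above WT. nlp-36, which overlaps dars-1 on the opposite strand, had 304 and 117 CPM in R9QT102I, 173 and 403 CPM in R9QG265R, 39.8 and 303 CPM in R9Qunc-16, 204 and 234.97 CPM in R9Q, and 264 and 241 CPM in WT. nlp-35, with C33A12.19 on the opposite strand, had 148 and 103.5 CPM in R9QT102I, 105 and 109 CPM in R9QG265R, 43.05 and 81.7 CPM in R9Qunc-16, 105 and 105 CPM in R9Q, and 108.1 and 111 CPM in WT. nlp-61 had 142 and 106 CPM in R9QT102I, 74.3 and 142 CPM in R9QG265R, 60.5 and 91.6 CPM in R9Qunc-16, 102.2 and 95.2 CPM in R9Q, and 107 and 97.6 CPM in WT. R9Q lay below WT without overlap in nlp-36 and, by little, in nlp-35, while in nlp-61 the R9Q and WT libraries overlapped. R9Qunc-16 replicate 1 was lowest in each of these genes. nlp-82, counted on 1 of its 2 annotated transcripts and so measured in part, had 46.95 and 37.7 CPM in R9QT102I, 26.7 and 34.7 CPM in R9QG265R, 13.5 and 28.6 CPM in R9Qunc-16, 37.9 and 34.9 CPM in R9Q, and 40.95 and 38.3 CPM in WT. nlp-16, measured in part, had 5.496 and 13.2 CPM in R9QT102I, 11.02 and 6.19 CPM in R9QG265R, 10.3 and 6.14 CPM in R9Qunc-16, 15.7 and 13.6 CPM in R9Q, and 13.7 and 15.03 CPM in WT. In nlp-16 every library of the suppressed strains lay below both WT and R9Q. nlp-60 had 4.24 and 7.52 CPM in R9QT102I, 4.63 and 7.87 CPM in R9QG265R, 1.38 and 6.68 CPM in R9Qunc-16, 7.32 and 10.3 CPM in R9Q, and 7.13 and 10.4 CPM in WT. nlp-63 had 6.44 and 4.25 CPM in R9QT102I, 4.79 and 7.37 CPM in R9QG265R, 1.07 and 4.67 CPM in R9Qunc-16, 6.30 and 9.90 CPM in R9Q, and 8.34 and 7.28 CPM in WT. nlp-41, which is measured in part and overlaps mog-4 on the opposite strand, had 9.27 and 0.993 CPM in R9QT102I, 2.08 and 11.4 CPM in R9QG265R, 0.460 and 13.1 CPM in R9Qunc-16, 8.20 and 9.52 CPM in R9Q, and 9.25 and 11.6 CPM in WT. The low values of nlp-60, nlp-63 and nlp-41 in R9Qunc-16 replicate 1 rest on at most 9 counts each, and the R9Qunc-16 libraries of nlp-41 differed by 28.5-fold.

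Each suppressed strain was then compared with R9Q, which addresses what a suppressor adds to R9Q. In R9QT102I against R9Q, both suppressed libraries lay above both R9Q libraries in 2 nlp genes (nlp-2 and nlp-61) and below both in 28 of 51, against 27.9% and 26.9% of all genes tested. The fit called 0 nlp genes, beside 0.562% of all genes, with 9 nlp genes at an unadjusted p under 0.05. DESeq2 called 5 of 49 nlp genes and 4.15% of all genes. The median log2 fold change was -0.55, with 6 above 0, beside 49.7% of all genes. In R9QG265R against R9Q, 1 gene (nlp-2) lay above and 32 lay below without overlap, against 21.2% and 22.2% of all genes. There the fit called 0 nlp genes and 0% of all genes, with 7 nlp genes at an unadjusted p under 0.05. DESeq2 called 0 of 45 nlp genes and 2.43% of all genes. The median was -0.49, with 12 above 0, beside 51% of all genes.

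In R9Qunc-16 against R9Q, 2 genes (nlp-2 and nlp-32) lay above and 43 lay below without overlap, against 22.8% and 29.7% of all genes. The median log2 fold change was -1.08, with 3 above 0, beside 47.6% of all genes, and 26 nlp genes were at an unadjusted p under 0.05. The share of all genes at an unadjusted p was not taken for any comparison, so no such count is read as a result about the nlp genes. DESeq2 called 16 of 49 nlp genes and 9.52% of all genes. Over all genes the medians of the 3 comparisons were -0.005, 0.014 and -0.045. The 3 comparisons and R9Q against WT share the R9Q libraries, so values of R9Q enter all of them and no agreement between them is read from these counts. Of the 10 molting genes 8 were tested and all 8 had a fitted change above 0 in each suppressed strain against R9Q, with 0 called. Their part in the nlp values was not tested.

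**Figure D5:**
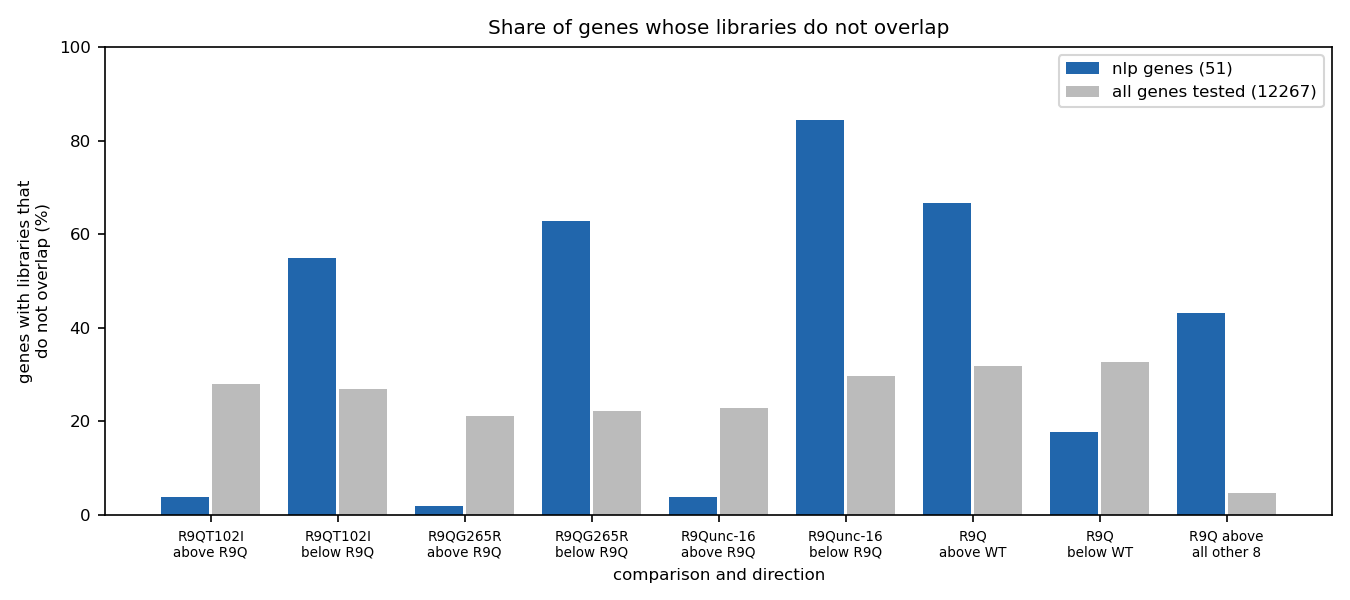
Share of genes (%) whose 2 libraries of the first-named strain all lie above, or all below, the libraries it is set against, for the 51 nlp genes (blue) and all 12267 genes tested (grey). The nlp shares below R9Q stand for 28, 32 and 43 genes and the share of R9Q above WT for 34; the last pair, 22 genes, was chosen after its values were seen.

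Against WT the medians of the suppressed strains were nearer 0 than against R9Q. In R9QT102I against WT 0 nlp genes were called, beside 0.0978% of all genes, with 3 at an unadjusted p under 0.05, 0 by DESeq2 beside its 3.44% of all genes, and a median log2 fold change of -0.14. In R9QG265R against WT 0 were called, beside 0.465% of all genes, with 2 at an unadjusted p under 0.05, 0 by DESeq2 beside its 4.12% of all genes, and a median of -0.03. In R9Qunc-16 against WT the median was -0.66, with 6 of 51 above 0, beside a median of -0.069 and 46.7% above 0 over all genes. There DESeq2 called 4 of 51 nlp genes and 13.5% of all genes.

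Genes of peptide processing and release were read from lists. Of 12 listed processing genes 7 were tested and 0 were called in any of the 7 comparisons. sbt-1, the chaperone of the proprotein convertase EGL-3, had 1935 and 1396 CPM in R9QT102I, 1538 and 2014 CPM in R9QG265R, 1357 and 1181 CPM in R9Qunc-16, 1698 and 1730.3 CPM in R9Q, and 1325 and 1310.0 CPM in WT. pghm-1, an enzyme of C-terminal amidation, had 1068 and 856 CPM in R9QT102I, 918 and 1214 CPM in R9QG265R, 1185 and 737 CPM in R9Qunc-16, 1178 and 1199.9 CPM in R9Q, and 921 and 875 CPM in WT. Both were higher in R9Q than in WT without overlap, and the suppressed libraries spread over both ranges. Of the other tested processing genes, aex-5, a proprotein convertase, ran the other way, with 130.2 and 119.2 CPM in R9Q and 182 and 178 CPM in WT, and so did cpd-1, with 146 and 153 CPM in R9Q and 167 and 168 CPM in WT. Of the 7 tested, 4 had a fitted change above 0 in R9Q against WT. Of 19 listed genes that make, carry or release dense-core vesicles 13 were tested. Of these vps-50, which acts in dense-core vesicle maturation, had 55.9 and 55.6 CPM in R9QT102I, 69.2 and 63.6 CPM in R9QG265R, 82.0 and 75.9 CPM in R9Qunc-16, 52.3 and 49.4 CPM in R9Q, and 40.2 and 43.9 CPM in WT, and it rose in R9Qunc-16 against WT (log2 fold change 0.91, SE 0.18, adjusted p = 0.0368). Of 17 listed receptors with nlp ligands or close relatives of them 12 were tested. seb-3, a receptor for nlp-49 peptides, had 71.3 and 88.9 CPM in R9QT102I, 93.4 and 76.2 CPM in R9QG265R, 69.9 and 63.6 CPM in R9Qunc-16, 103.7 and 112 CPM in R9Q, and 129 and 126 CPM in WT, and it fell in R9Qunc-16 against WT (log2 fold change -0.93, SE 0.20, adjusted p = 0.0445). None of the other tested genes of these lists was called in any comparison. Of 18 alternatives, 9 kept the call of vps-50 and 6 that of seb-3. Both were lost without either library of R9QT102I, R9Q or WT, with the 4 libraries of R9Qunc-16 and WT alone and with no filter on low counts, and that of seb-3 also without either R9Qunc-16 library and with DESeq2 size factors. The adjusted p was at most 0.339 for vps-50 and 0.316 for seb-3.

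Pan-neuronal markers were read beside the nlp genes, 9 listed, of which 2 or 3 were at 0 in each library. Among them, egl-3 is also on the processing list and unc-64 on the list of dense-core vesicle genes. They summed to 833 and 861 CPM in R9QT102I, 850 and 809 in R9QG265R, 648 and 820 in R9Qunc-16, 1097 and 1005 in R9Q, and 1177 and 1149 in WT. The neuronal sum was lower in R9Q than in WT while the nlp sum was higher, and both sums were lowest in R9Qunc-16 replicate 1. The median CPM of the 7 markers with a count was instead highest in that library, at 39.4. It was 9.74 in R9QT102I replicate 1, 5.52 in R9QG265R replicate 2 and 16.2 in R9Qunc-16 replicate 2. In every other library it was at least 26.1, so the markers did not move together. Of the 6 neuronal markers tested, 3 had a fitted change above 0 in R9Q against WT, and 0 were called in any comparison. Whether the share of neuronal RNA plays a part in the nlp values was not tested.

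Another 7 genes are named nlp in RefSeq but carry another name in the annotation used here, and they were not counted among the 65. The most counted of them, RefSeq's nlp-99, had 502 and 521 CPM in R9QT102I, 469 and 467 CPM in R9QG265R, 462 and 327 CPM in R9Qunc-16, 481 and 503 CPM in R9Q, and 359.9 and 349 CPM in WT. nlp-10, spelled npl-10 in the annotation, had 227 and 164 CPM in R9QT102I, 170.1 and 238 CPM in R9QG265R, 85.5 and 167 CPM in R9Qunc-16, 283 and 299.7 CPM in R9Q, and 258 and 254 CPM in WT. With these 7 genes added, the numbers of calls were 2 in R9Qunc-16 against R9Q, 3 in R9Qunc-16 against WT and 0 in the other 5 comparisons.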

How the data were processed

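The files deposited by the authors hold raw counts, 1 value per transcript, obtained with HTSeq 0.9.1 after trimming with Trim Galore 0.4.4 and alignment to ce11 with STAR 2.5.4b, per the submitters' processing notes. Per the labels' protocols, total RNA was extracted with TRIzol and libraries were made with the KAPA RNA HyperPrep kit. The strand setting and the annotation release are not given in the sources used here. The 5 summary entries that close each table, such as ambiguous and unaligned reads, entered neither library sizes nor tests.

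Transcript names were matched to genes of the Ensembl WBcel235 annotation (56781 of 61451 by identifier, 4581 by sequence name), and counts were summed per gene. A single model over the 10 libraries was fitted with edgeR 4.0.16 in R 4.3.3 (filterByExpr with a minimum count of 10, TMM factors of 0.900 to 1.095, glmQLFit and glmQLFTest, 1 term per strain, 5 residual degrees of freedom). Benjamini-Hochberg adjustment covered all 12267 genes tested, and a gene with adjusted p under 0.05 is called. SEs were worked back from the test. Groups do not overlap where both libraries of 1 strain lie on 1 side of both of the other. Since WT and R9Q varied less than the suppressed strains and share 1 estimate of spread with them, p-values for suppressed strains can be too small and those for R9Q against WT too large.

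nlp genes averaging 20 or more counts, or called, are described by library. Fold changes are printed for calls, for described genes with a log2 change of at least 0.5 in R9Q against WT, and for the 10 most counted of these in the suppressed strains. Called genes of the processing, vesicle and receptor lists are named, otherwise up to 2 per list. The nlp genes, lists and rules were chosen with earlier results of these data known. The fitting steps were run on simulated data with the same spread in all strains, for R9Q against WT only. That run does not cover the unequal spread of these strains. Alternatives were DESeq2 1.42.0, its size factors, other count filters, fewer libraries, a replicate block, a term for the 3 libraries low in mitochondrial counts and each library left out in turn. Adding the 7 genes named nlp in RefSeq and rescaling the counts of non-overlapping genes were chosen after seeing the data.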

Additional observations from a re-analysis of the deposited data

How the results depend on the processing

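The number of nlp genes called depended on the libraries that set the spread, and each count is followed by the share of all genes called. With only the 4 libraries of the strains compared it was 33 in R9Q against WT (37.7%), 4 in R9QT102I against R9Q (7.29%), 0 in R9Qunc-16 against R9Q (0%) and 0 in R9Qunc-16 against WT (0%). A term for the 3 libraries low in mitochondrial transcripts gave 2 in R9Q against WT (1.83%). Against R9Q it gave 8 in R9QT102I (4.02%), 1 in R9QG265R (1.03%) and 32 in R9Qunc-16 (12.5%), and against WT 3 in R9QT102I (3.2%), 5 in R9QG265R (5.44%) and 26 in R9Qunc-16 (20.4%). Without those 3 libraries there were 32 in R9Q against WT (32.5%). Against R9Q there were then 39 in R9QT102I (36%), 35 in R9QG265R (33.9%) and 43 in R9Qunc-16 (50.5%), and against WT 29 in R9QT102I (36.6%), 21 in R9QG265R (40.9%) and 40 in R9Qunc-16 (54.2%). There the lone library of a suppressed strain is assumed to vary like WT and R9Q. With no filter on low counts, R9QT102I had 2 (3.16%), R9QG265R 3 (1.83%) and R9Qunc-16 13 (5.03%) against R9Q, and R9QT102I had 2 (2.39%), R9QG265R 3 (2.9%) and R9Qunc-16 5 (6.66%) against WT. The stricter filter gave 4 in R9Qunc-16 against R9Q (1.59%). DESeq2 gave 5 in R9QT102I (4.15%) and 16 in R9Qunc-16 (9.52%) against R9Q, and 4 in R9Q against WT (2.25%). With 1 library left out the calls ranged from 0 to 3 in R9QT102I against R9Q (3 without either R9Qunc-16 library, with 1.97 and 2.03%), from 0 to 23 in R9Qunc-16 against R9Q (5.19% at 23) and from 0 to 20 in R9Qunc-16 against WT (11% at 20), and were 0 in the other 4 comparisons.

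Replicate numbers did not pair the samples. Differences between replicates 1 and 2 correlated over genes by -0.64 between R9QT102I and R9QG265R, -0.46 between R9QT102I and R9Qunc-16, 0.61 between R9QG265R and R9Qunc-16, and from -0.03 to 0.03 in pairs with R9Q or WT. With a replicate block there were 0 calls in R9Qunc-16 against R9Q and 0 against WT, the other 5 comparisons stayed at 0, and the calls of vps-50 and seb-3 were lost. Both R9Q libraries lay below both WT libraries in 4 nlp genes when scaled by total counts (26% of all genes) and in 4 when scaled without mitochondrial genes (26.9%), against 9 by TMM (32.6%). Scaling by total counts moved the median of all genes by -0.14, -0.25 and -0.16 in R9QT102I, R9QG265R and R9Qunc-16 against R9Q.

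Of 1006 refitted values of the 56 fold changes printed, 819 kept their direction and side of the threshold, 116 passed it newly, 65 no longer passed and 6 changed sign. For nlp-33 against R9Q, leaving out libraries gave -1.96 to 0.033 in R9QT102I, -2.87 to 0.48 in R9QG265R and -5.35 to 0.62 in R9Qunc-16, positive without R9QT102I replicate 2, R9QG265R replicate 1 and R9Qunc-16 replicate 1. nlp-17 in R9QT102I against R9Q was -0.043 with the term, -0.14 without the 3 libraries and -0.15 to 0.37 with 1 library left out, negative without R9QT102I replicate 1. The cause was not tested. Genes under about 20 counts per library, such as nlp-9, nlp-14, nlp-21, nlp-32, nlp-45 and nlp-69, are limited by depth, and genes with several transcripts by the counting.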
